A study of Mus musculus with 6 samples.

Results

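The genes described here are 45 mouse genes of mitosis: cyclins and their kinase, other mitotic kinases, the spindle checkpoint, kinesins, centromere and spindle proteins, and genes of cytokinesis. They were taken from a fixed list of names and matched by Ensembl identifier, and all 45 were found among the 23886 genes listed and among the 11114 genes tested. The list was chosen with earlier results of these data known, so member shares set beside those of all genes are descriptions and not tests. The libraries are poly(A) RNA sequencing of wild-type AML12 cells, which are an established line of mouse hepatocytes. Of the 6 libraries, 3 came from cells with no treatment (Control 2, Control 3 and Control 4) and 3 from cells given a static (constant) magnetic field (SMF 1, SMF 2 and SMF 3). The sources used here give no field strength, exposure time or culture density. Nothing in the labels says that the libraries came from separate cultures, so p-values measure only the spread between these samples, which may be technical. AML12 is 1 line, and cells were not sorted or synchronised as far as the labels say.

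A dividing cell makes most mitotic transcripts late in the cycle, in G2 and M. Their promoters are held off in resting cells by the DREAM complex and switched on in dividing cells by B-MYB and FOXM1, through CCAAT boxes bound by NF-Y and a short element near the transcription start, the cell cycle genes homology region (CHR), whose common form reads TTTGAA. Cyclin B with CDK1 drives entry into mitosis. Aurora and Polo-like kinases build the spindle, the checkpoint holds back the anaphase-promoting complex until every kinetochore is attached, and anillin and ECT2 then direct the cleavage furrow. In a cultured line the summed level of these transcripts follows the share of cells in G2 and M and the RNA in each such cell, and in bulk RNA fewer such cells and less RNA per cell cannot be told apart.

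Promoter sequences are shown for 5 members because they carry these elements and span the range of differences between the groups, from Ect2, among the lowest under SMF, to Cdc20, the highest. A promoter was found in a RefSeq table (build GRCm38.p6) for 38 of the 45 members, and not for Ccna2, Bora, Aurkb, Incenp, Kif20a, Tpx2 and Nedd1. The sequences below are the 250 bases before the transcription start, 5′ to 3′ on the strand of the gene, with matches to TTTGAA and CCAAT on either strand in capitals (TTCAAA and ATTGG are the same letters read on the other strand). The deposited values were made on build GRCm39 and carry no coordinates, so the positions belong to the sequence table alone. Ccnb1 is at chr13:100786487-100786736, Cdk1 at chr10:69352913-69353162, Cdc20 at chr4:118437344-118437593, Top2a at chr11:99024190-99024439 and Ect2, at the first of its 2 listed starts, at chr3:27153855-27154104, all on the minus strand.
Ccnb1: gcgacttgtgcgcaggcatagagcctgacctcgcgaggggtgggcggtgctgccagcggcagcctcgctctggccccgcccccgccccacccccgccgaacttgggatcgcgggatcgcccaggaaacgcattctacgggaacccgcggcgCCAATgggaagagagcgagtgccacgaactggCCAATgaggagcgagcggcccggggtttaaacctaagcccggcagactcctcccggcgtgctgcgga
Cdk1: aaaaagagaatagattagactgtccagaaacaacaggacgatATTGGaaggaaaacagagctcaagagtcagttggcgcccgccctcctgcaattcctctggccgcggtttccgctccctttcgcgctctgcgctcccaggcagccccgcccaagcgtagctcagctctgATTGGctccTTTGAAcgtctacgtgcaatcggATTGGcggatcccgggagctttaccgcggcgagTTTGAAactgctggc
Cdc20: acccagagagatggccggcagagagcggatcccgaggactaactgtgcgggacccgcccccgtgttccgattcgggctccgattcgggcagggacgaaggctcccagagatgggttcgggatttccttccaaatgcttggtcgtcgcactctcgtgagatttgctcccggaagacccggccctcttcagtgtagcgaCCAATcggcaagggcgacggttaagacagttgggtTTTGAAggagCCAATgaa
Top2a: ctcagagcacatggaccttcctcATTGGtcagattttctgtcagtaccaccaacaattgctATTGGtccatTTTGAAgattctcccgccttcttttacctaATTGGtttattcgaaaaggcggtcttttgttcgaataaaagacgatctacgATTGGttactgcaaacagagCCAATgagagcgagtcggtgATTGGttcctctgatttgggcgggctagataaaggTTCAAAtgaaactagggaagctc
Ect2: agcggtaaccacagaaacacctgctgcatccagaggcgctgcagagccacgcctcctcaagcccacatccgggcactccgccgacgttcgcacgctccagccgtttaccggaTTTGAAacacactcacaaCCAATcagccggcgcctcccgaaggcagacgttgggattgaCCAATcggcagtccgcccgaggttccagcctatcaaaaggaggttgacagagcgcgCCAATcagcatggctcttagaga
Ccnb1 holds a pair of CCAAT matches, beginning 99 and 67 bases before the start, and no TTTGAA in this window. Cdk1 has TTTGAA beginning 71 and 15 bases before the start. Cdc20 has CCAAT beginning 53 and 8 bases, and TTTGAA beginning 18 bases, before the start. Top2a has 6 CCAAT matches and Ect2 has 3, with TTTGAA in both. A match is a description of the letters and not of binding.

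Over these 250 bases and the first 50 of the transcript, TTTGAA was in the promoters of 29 of 38 members (76.3%), against 20.2% of all 27025 genes in the sequence table and 14.3% of the tested genes with a promoter in it. In 26 of these 29 members a match began between 30 bases before and 45 after the start. CCAAT was in 29 of 38 members (76.3%), against 41.1% of all genes and 43.7% of the tested genes with a promoter. At least 2 CCAAT matches were held by 23 members. Shares over all genes were not counted for that window or for at least 2 matches. Bases just after the listed start were found in an annotated transcript of the same gene for 28 of the 38 members. Members with TTTGAA had a median log2 fold of -0.10 and the 9 without it -0.14. For CCAAT the medians were -0.11 with it and -0.14 without. The fold ranges overlapped for each motif, and no difference between them was tested.

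Members were lower under SMF by a median of 0.11 in log2(FPKM + 1), and 42 of 45 (93.3%) had a fold below 0. All folds here are on this scale unless a fold is said to come from limma-voom. Among all 11114 genes tested the median was -0.01 and 53.3% had a fold below 0. FPKM is the fragment count of a gene divided by its length and by the library total. By limma with Benjamini-Hochberg adjustment over all tested genes, 0 of the 45 members passed the threshold of 0.05, as did 0 of all genes (0%), and the smallest adjusted p of a member was 0.11. At an unadjusted p under 0.05, 17 members (37.8%) were lower and 0 higher, beside 8.57% of all tested genes lower and 18.0% in either direction. In 18 members (40.0%) every SMF library lay below every control, against 12.7% of tested genes, and in 1 member, Cdc20, every SMF library lay above every control (2.22%, against 11.0%). limma-voom, run on the reads recovered from the FPKM values, called 7 members lower (15.6%), where it called 2.37% of 11049 genes lower and 4.55% in either direction. These were Nedd1, Anln, Cenpf, Ect2, Top2a, Ccna2 and Kif20b.

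**Figure D1:**
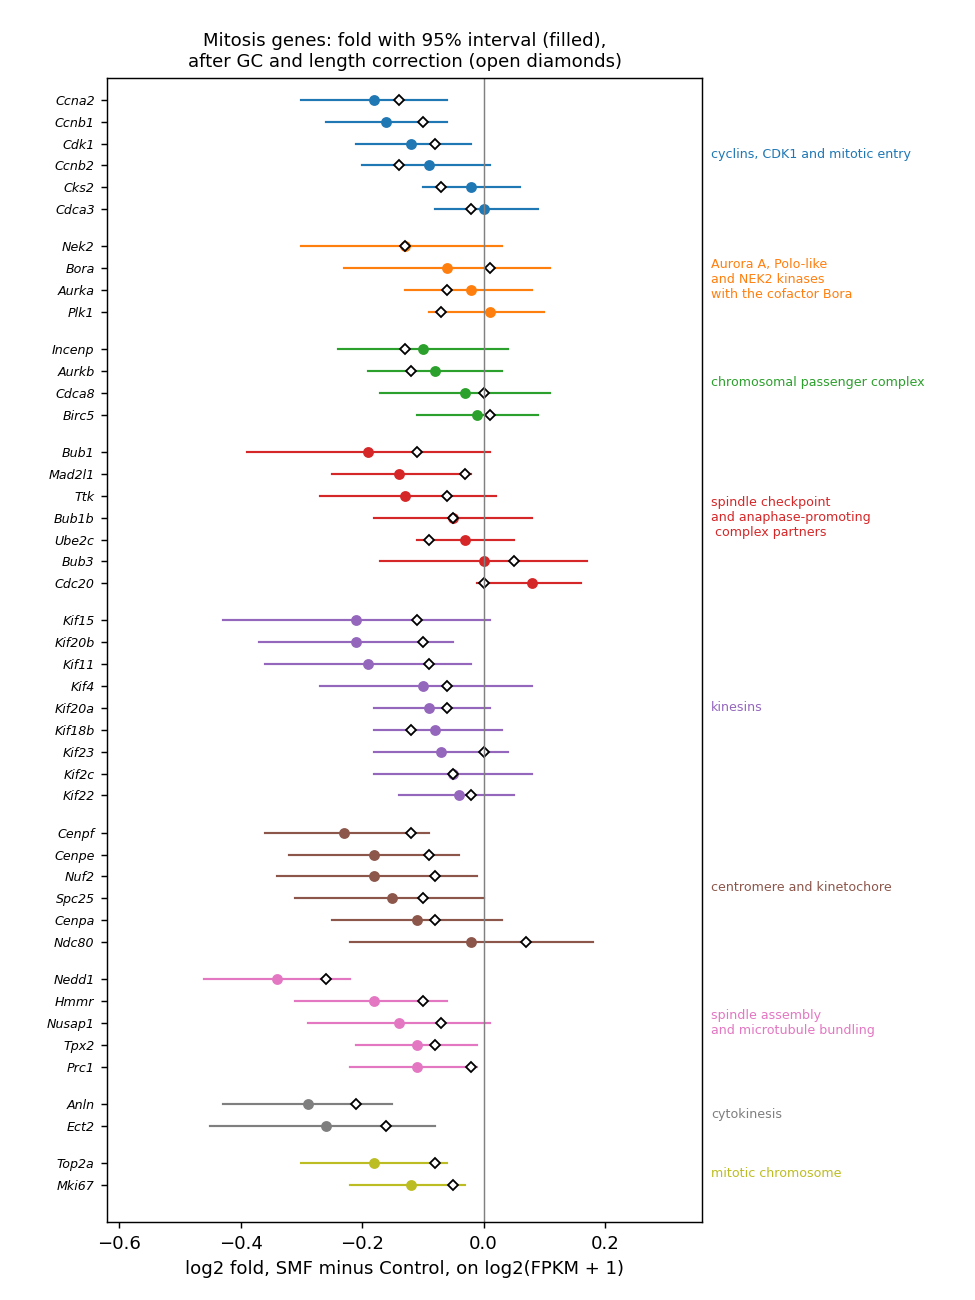
Log2 fold of each of the 45 mitosis genes, SMF minus Control, on the log2(FPKM + 1) scale (x axis), grouped by class (y axis). Filled points are the values as deposited with the limma 95% interval (unadjusted, n = 3 libraries a group), and open diamonds the fold after the GC and length correction. Filled points of 42 genes lie below 0, with Nedd1 lowest at -0.34 and Cdc20 highest at 0.08.

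Among cyclins, CDK1 and genes of mitotic entry, 5 of 6 had a fold below 0 (median -0.11). In 3 every SMF library lay below every control, as in 12.7% of all tested genes. After the GC and length correction 3 did so, against 8.79%. Ccnb1 (ENSMUSG00000041431), the cyclin B that activates CDK1 at mitotic entry, was at 26.01, 27.0 and 28.04 FPKM in Control 2, 3 and 4 and at 23.75, 24.67 and 23.7 in SMF 1, 2 and 3. Every SMF library was below the lowest control, and the mean was 11.0% lower (log2 fold -0.16 ± 0.043, SE, limma adjusted p = 0.164). Ccna2, the S and G2 cyclin, was at 34.55, 34.26 and 33.69 FPKM untreated and 29.0, 32.42 and 28.64 under SMF. The controls lay close together while SMF 2 stood nearer to them than SMF 1 or SMF 3 (log2 fold -0.18 ± 0.052, limma adjusted p = 0.171, limma-voom adjusted p = 0.0376). Cdk1, the kinase that both cyclins activate, was at 29.8, 31.1 and 29.26 FPKM untreated and 28.56, 26.95 and 27.34 under SMF, again without overlap (log2 fold -0.12 ± 0.042, limma adjusted p = 0.219). Cks2, the small subunit that helps CDK1 bind its substrates and the most abundant gene of its class, was at 61.02, 62.41 and 61.01 FPKM untreated and 60.26, 59.88 and 61.92 under SMF. These ranges overlapped, and the interval of its fold ran from -0.10 to 0.06. Ccnb2, at a mean of 58.82 FPKM untreated and 55.05 under SMF, and Cdca3, which promotes the breakdown of the inhibitor WEE1, at 43.49 and 43.63, overlapped too.

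The spindle kinases with Bora had a median fold of -0.04, and none of the 4 separated the groups. Plk1, which matures centrosomes and promotes CDK1 activation and which had the highest mean level of the 45, was at 59.93, 60.69 and 62.75 FPKM untreated and 62.76, 62.92 and 58.59 under SMF. Its groups overlapped, with a fold of 0.01 and an interval of -0.09 to 0.10. The sign of this small fold depended on the scaling: it was -0.027 after rescaling to TPM, -0.033 after quantile normalization and 0.016 after median-of-ratios scaling. Aurka, the centrosomal Aurora kinase, stood at 29.11, 29.91 and 31.64 FPKM untreated and 28.93, 30.84 and 29.38 under SMF (log2 fold -0.02, interval -0.13 to 0.08). Nek2, which separates centrosomes, was at 12.31, 14.36 and 13.34 against 11.53, 13.22 and 11.51 FPKM, with overlap and a fold of -0.13 ± 0.072 (limma adjusted p = 0.369). Bora, the cofactor with which Aurora A activates PLK1, was at 3.46 FPKM untreated and 3.28 under SMF and had the fewest reads of any member in a library, 248.

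All 4 members of the chromosomal passenger complex, which corrects wrong attachments and moves to the midzone at anaphase, had folds from -0.10 to -0.01, and each overlapped between groups. Incenp, its scaffold, was at 51.98, 58.36 and 56.88 FPKM untreated and 55.98, 50.81 and 49.06 under SMF. SMF 1 lay within the controls and Control 2 near the other SMF libraries, so the fold of -0.10 ± 0.061 did not exceed the spread (limma adjusted p = 0.409). Its kinase Aurkb went from a mean of 31.77 to 29.91 FPKM, while Cdca8 (borealin) and Birc5 (survivin) differed by at most 0.03. After the GC and length correction, 2 of the 4 had a fold below 0 and 2 above. Those 2 below were lower at an unadjusted p under 0.05 by limma, against 5.74% of all tested genes. Corrected values of Aurkb were lower in every SMF library than in every control, as in 8.79% of all tested genes.

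For the spindle checkpoint and partners of the anaphase-promoting complex, 6 of 7 had a fold below 0 with a median of -0.05. The kinase Bub1 was at 14.53, 13.96 and 16.87 FPKM untreated and 12.52, 14.72 and 12.16 under SMF, with SMF 2 inside the control range (log2 fold -0.19 ± 0.087, limma adjusted p = 0.297). Cdc20, the activator that the checkpoint holds and that turns the anaphase-promoting complex on securin and cyclin B, was at 58.24, 58.83 and 55.85 FPKM untreated and 61.87, 59.7 and 60.92 under SMF. It was the 1 member with every SMF library above every control (5.5% higher, log2 fold 0.08 ± 0.036, limma adjusted p = 0.31). Mad2l1, which forms the inhibitor of CDC20, did not overlap either, at 13.41 FPKM untreated and 12.11 under SMF, and its fold went from -0.14 to -0.03 after the GC and length correction. Bub3, Bub1b, Ttk and the ubiquitin-conjugating enzyme Ube2c overlapped between groups.

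Of the 9 kinesins, the motors that slide, bundle and shorten spindle microtubules, all had a fold below 0 (median -0.09). In 3 (Kif15, Kif18b and Kif20b) every SMF library lay below every control, as in 12.7% of all tested genes. After the GC and length correction 1 kinesin did so, against 8.79%. Kif20a, the most abundant and a motor of the central spindle, was at 56.4, 61.06 and 58.81 FPKM untreated and 55.2, 56.72 and 53.85 under SMF. SMF 2 just exceeded Control 2 (log2 fold -0.09 ± 0.041, limma adjusted p = 0.313). Kif15, a motor that helps keep the spindle bipolar, was among the least abundant members at 2.65, 2.77 and 2.88 FPKM untreated and 2.27, 2.6 and 1.92 under SMF (18.1% lower, log2 fold -0.21 ± 0.095, limma adjusted p = 0.29). SMF 3 stood lowest and SMF 2 just under the lowest control. Kif20b passed limma-voom (adjusted p = 0.0404), with a limma-voom log2 fold of -0.22 that became -0.09 once corrected for GC content and length. The other 6, among them the bipolar spindle motor Kif11, had folds of -0.19 to -0.04.

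All 6 centromere and kinetochore genes had folds below 0, with a median of -0.17. Cenpf, a large kinetochore protein of G2 and M, was at 6.22, 5.9 and 6.19 FPKM untreated and 4.92, 5.4 and 4.91 under SMF. The groups were apart, with SMF 2 the highest of its group (16.8% lower, log2 fold -0.23 ± 0.059, limma adjusted p = 0.164, limma-voom adjusted p = 0.0128). Cenpa, the histone H3 variant that marks the centromere, was at 13.68, 14.73 and 15.37 FPKM untreated and 14.15, 13.69 and 12.46 under SMF, which overlapped (log2 fold -0.11 ± 0.062, limma adjusted p = 0.371). Within the NDC80 complex, the part that grips microtubules, Nuf2 had a fold of -0.18 and Spc25 of -0.15, while Ndc80 itself had -0.02, with Control 2 at 4.04 FPKM below every SMF library. The fold of Ndc80 was 0.008 after quantile normalization.

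Spindle assembly genes all had folds below 0 (median -0.14). In 4 of 5 every SMF library lay below every control, as in 12.7% of all tested genes. After the GC and length correction 2 of the 5 did so, against 8.79%. Nedd1 (ENSMUSG00000019988), which brings the gamma-tubulin ring complex to the spindle, was at 9.89, 9.25 and 9.82 FPKM untreated and 7.06, 7.48 and 7.67 under SMF. It had the largest difference of any member: every SMF library was below 8 FPKM and every control above 9, and the mean was 23.3% lower (log2 fold -0.34 ± 0.053, limma adjusted p = 0.11, limma-voom adjusted p = 0.0082). Tpx2, which activates Aurora A on the spindle, was at 33.38, 34.64 and 34.27 FPKM untreated and 30.71, 33.22 and 30.57 under SMF, with SMF 2 just below Control 2 (log2 fold -0.11 ± 0.044, limma adjusted p = 0.246). Hmmr, a spindle pole protein, and Prc1, the bundler of antiparallel microtubules, did not overlap either, at folds of -0.18 and -0.11, and Nusap1 did.

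Both cytokinesis genes were among the lowest. Anln, the scaffold of the contractile ring, was at 21.33, 20.84 and 22.87 FPKM untreated and 16.8, 19.14 and 16.86 under SMF. The gap between the groups was 20.84 to 19.14 FPKM (18.8% lower, log2 fold -0.29 ± 0.061, limma adjusted p = 0.147, limma-voom adjusted p = 0.00366). Ect2, the exchange factor that activates RhoA at the furrow, was at 21.65, 21.28 and 25.04 FPKM untreated and 17.6, 20.82 and 17.83 under SMF. Control 4 stood above its group and SMF 2 just under the lowest control (log2 fold -0.26 ± 0.081, limma adjusted p = 0.188, limma-voom adjusted p = 0.02).

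On the mitotic chromosome, Top2a, the topoisomerase that untangles sister chromatids, was at 49.69, 47.84 and 52.78 FPKM untreated and 42.92, 46.94 and 42.73 under SMF. It did not overlap, with SMF 2 again nearest to the controls (11.8% lower, log2 fold -0.18 ± 0.052, limma adjusted p = 0.178, limma-voom adjusted p = 0.0208). Mki67, the coat protein of mitotic chromosomes used as a proliferation marker, was at 35.99, 37.04 and 38.89 FPKM untreated and 33.91, 34.74 and 33.75 under SMF. These groups did not overlap (8.5% lower, log2 fold -0.12 ± 0.041, limma adjusted p = 0.203), and limma-voom gave an adjusted p of 0.0628.

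**Figure D2:**
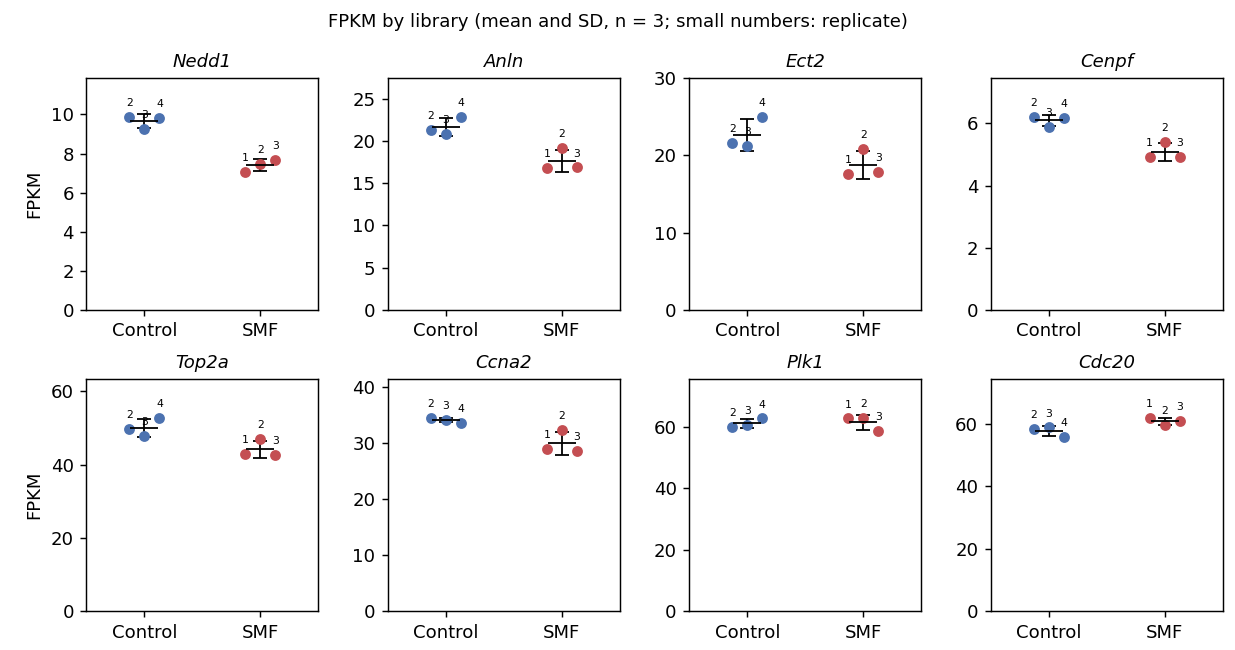
FPKM (y axis, from 0) in each library for 8 mitosis genes, with the group mean and SD (n = 3) in black and the replicate number above each point. Nedd1, Anln, Ect2, Cenpf, Top2a and Ccna2 show no overlap between Control and SMF, Plk1 overlaps, and Cdc20 is higher in every SMF library.

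As deposited, many members shared an order over the libraries. The median over the 45 genes of the deviation from each gene's own mean was 0.008, 0.065 and 0.079 in Control 2, 3 and 4 and -0.081, -0.006 and -0.082 in SMF 1, 2 and 3. Control 2 and SMF 2 were thus close together, while the other libraries of the groups stood well apart. SMF 2 was the highest SMF library for 26 members, and Control 2 the lowest control for 27. SMF 3 was the lowest of all 6 libraries for 20 members and SMF 1 for 14, and Control 4 was the highest for 22. These ranks were not counted over all tested genes or on corrected values. After the GC and length correction the medians were -0.015, 0.053 and 0.055 in Control 2, 3 and 4. In SMF 1, 2 and 3 they were -0.032, -0.014 and -0.062. Leaving out Control 4 lowered the number of members lower at an unadjusted p under 0.05 from 17 to 9, and leaving out SMF 3 to 10, with 4.88% and 5.36% of all tested genes lower in those fits. The number below 0 was 38 to 44 of 45 with any 1 library left out.

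**Figure D3:**
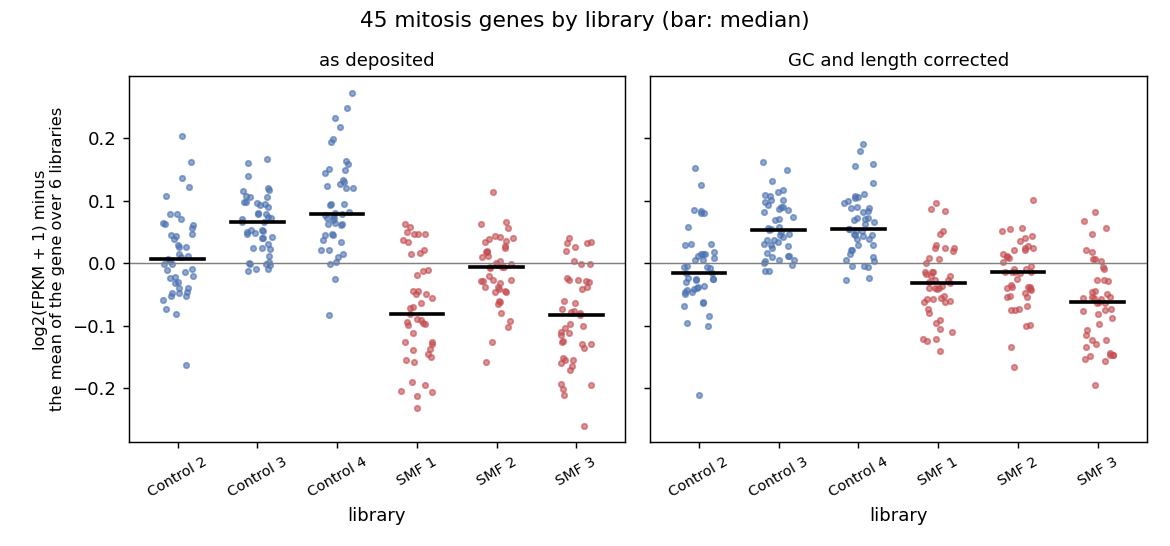
Deviation of log2(FPKM + 1) from the gene's mean over the 6 libraries (y axis) for the 45 mitosis genes in each library (x axis), as deposited (left) and after the GC and length correction (right). Points are genes and bars medians. As deposited, all 3 SMF medians lie below all 3 control medians, and after the correction SMF 2 at -0.014 lies level with Control 2 at -0.015.

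The folds went with base composition and length, among these genes and among all tested genes. With the tested genes cut into 5 equal groups (quintiles), the median log2 fold of the quintile with the lowest GC content (up to 43.8%) was -0.09, and in the quintile with the highest it was 0.07. By exon length it went from 0.07 in the shortest quintile to -0.07 in the longest. The members had a median GC content of 46.3% and a median length of 4903 bases, against 49.7% and 4209 bases over all tested genes. Across the 45 members the fold had a Pearson correlation of 0.68 with GC content and -0.51 with log2 length. GC content and length were themselves correlated at -0.49, and all points share the same 6 libraries. The 15 members of lowest GC content (39.4% to 43.3%) had a median fold of -0.18, and the 15 of highest (48.4% to 56.0%) had -0.05. Plk1, Cdc20 and Ube2c, with folds of 0.01, 0.08 and -0.03, are 3 of the most GC-rich members at 55.5% to 56.0%, whereas Nedd1, Ect2 and Kif20b lie at 39.4% to 41.1%.

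**Figure D4:**
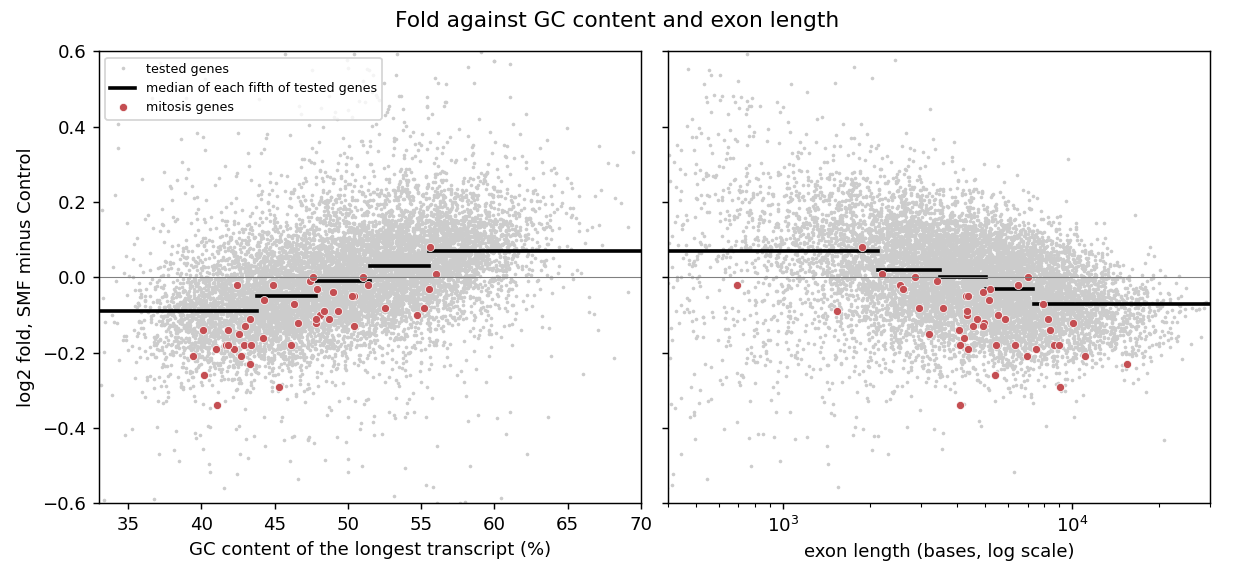
Log2 fold, SMF minus Control (y axis), against GC content of the longest transcript (left, %) and exon length (right, bases, log scale). Grey points are tested genes, black bars the median of each quintile of them, and red points the 45 mitosis genes. Points outside the plotted ranges are not drawn. Red points follow the slope of the grey ones and lie mostly below the bars: 39 of 45 are under the median of their GC quintile and 41 under that of their length quintile.

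Set against genes of like composition, 39 of 45 lay under the median of their own quintile of GC content and 41 under that of their own quintile of length. When a smooth trend in length and GC content was removed from each library, 39 of 45 (86.7%) had a fold below 0, against 49.4% of all tested genes, and the median was -0.08. Corrected values of every SMF library lay below every control for 13 members (28.9%, against 8.79%), and 12 (26.7%, against 5.74%) were lower at an unadjusted p under 0.05. Again 0 of 45 passed limma over all genes, with 0% of all genes called. With the same correction limma-voom called Anln (adjusted p = 0.0219) and Nedd1 (adjusted p = 0.048) lower, 4.44% of members against 0.235% of all genes, and the other 5 members it had called without the correction did not pass. The corrected fold of Nedd1 was -0.26, of Anln -0.21 and of Ect2 -0.16. For Cenpf it was -0.12, for Top2a -0.08 and for Mki67 -0.05, each nearer to 0 than as deposited.

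The classes came closer together after the correction. As deposited, their medians ran from -0.04 for the spindle kinases with Bora to -0.17 for the centromere and kinetochore and -0.27 for cytokinesis. Median GC content was 42.7% for cytokinesis, 42.8% for centromere and kinetochore, 41.8% for spindle assembly and 50.9% for the kinases. The mitotic chromosome genes, whose median fold of -0.15 was lower than that of spindle assembly, had a higher GC content, 43.4% in Top2a and 46.6% in Mki67. They were also longer, with a median exon length of 9537 bases against 4677 for spindle assembly. The corrected medians of these classes were -0.07 and -0.08. Corrected medians lay between -0.05 and -0.09 in 8 of the 9 classes, and at -0.19 for the pair of cytokinesis genes. Plk1 had a corrected fold of -0.07 in place of 0.01, and Cdc20 one of 0.00 in place of 0.08. The differences between classes were not tested.

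Other genes of the mitotic programme were read from the same fit, and 0 of them passed limma over all genes. Condensin and cohesin, the rings that compact chromosomes and hold sisters together, had 19 of 20 folds below 0 (median -0.17, and -0.07 corrected), and in 9 of the 20 every SMF library lay below every control (5 of the 20 corrected), where 12.7% of all tested genes did so (8.79% corrected). Rad21, the cohesin subunit that separase cleaves and the most abundant of them, was at 91.8 ± 4.64 FPKM untreated and 80.63 ± 5.02 under SMF (SD, n = 3; limma adjusted p = 0.176, limma-voom adjusted p = 0.0209). With the correction its limma-voom adjusted p was 0.121, and 0 of the 20 genes passed limma-voom where 4 had before, all of them lower. Over all genes limma-voom called 2.37% lower before the correction and 0.235% with it. Of the 30 other centromere and kinetochore genes, 21 were below 0 (median -0.06, and -0.01 corrected, where 16 were below 0). Their most abundant gene, Zwint, was at 31.97 ± 1.18 and 32.3 ± 2.1 FPKM.

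Regulators of mitotic entry and of its transcription had 13 of 18 tested folds below 0 (median -0.08, and -0.06 corrected). Foxm1, the transcription factor of G2 and M genes, was at 29.1, 31.18 and 30.57 FPKM untreated and 28.5, 28.52 and 27.9 under SMF. Every SMF library was lower than every control (log2 fold -0.09 ± 0.04, limma adjusted p = 0.274). Mybl2, which encodes B-MYB and was named after its values were seen, overlapped at 9.86 ± 0.2 and 9.92 ± 0.51 FPKM, and E2f4, of the DREAM complex, was at 35.79 ± 0.83 and 36.86 ± 2.76.

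The anaphase-promoting complex and its separase axis had no common direction, with 9 of 19 folds below 0 and a median of 0.02. Anapc5, its most abundant gene, was at 68.35 ± 3.37 FPKM untreated and 66.56 ± 1.69 under SMF. Anapc11, the RING subunit, was higher by limma-voom (adjusted p = 0.0414) at 22.84 ± 1.37 and 25.93 ± 0.27 FPKM, and not by limma (adjusted p = 0.17) or by corrected limma-voom (adjusted p = 0.0833). Pttg1 and Espl1, which encode securin and the separase it inhibits, were lower without overlap, at 34.11 ± 1.76 and 29.64 ± 2.07 FPKM and at 13.56 ± 0.69 and 11.98 ± 0.6 (limma adjusted p = 0.186 and 0.209). Anapc11, Pttg1 and Espl1 were named after their values were seen.

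Library totals behind the values were 15514530 to 18200516 reads, overlapping between groups, and 248 to 8102 reads lay behind a member in a library. Hepatocyte keratins were abundant, with Krt8 at 1921 FPKM untreated and 2018 under SMF, and Hnf4a was at 91.6 and 91.4. Krt19 and Spp1, markers of bile duct cells, were at 1063 and 862 FPKM untreated and 1110 and 869 under SMF. Other bile duct markers were lower, with Krt7 at 61.9 and 62.6 and Sox9 at 8.99 and 9.55. Epcam, of the same list, was at 0.00892 FPKM untreated and 0 under SMF. Alb was at 29.2 and 30.4, and Apoa1, Apoa2 and Serpina1a, other defining hepatocyte markers, were below 1 FPKM. Summed markers of fibroblasts and stellate cells (7 of 8 listed, with Col1a2 and Dcn at 0) were 1.43 to 1.92 FPKM untreated and 1.48 to 1.81 under SMF. Those of macrophages and leukocytes were 3.59 to 4.78 and 4.22 to 4.37, and those of endothelium 0.0965 to 0.16 and 0.113 to 0.237, with overlap between groups in all 3. Because no strand marking is stated, reads of antisense neighbours cannot be told apart: Kif20a shares 29.3% of its exon bases with Cdc23, Ube2c 22.8% with Tnnc2, Kif4 15.1% with Pdzd11, Ccna2 12.5% with Exosc9 and Prc1 11.1% with Rccd1. Ccnb1, Ccnb2, Kif22 and Kif4 have annotated pseudogenes that could take or give reads.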

How the data were processed

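Per the labels' protocols, TRIZOL was used for the RNA, oligo(dT) beads selected poly(A) transcripts, and cDNA was primed at random (VAHTS Universal V6 kit). The deposited files hold FPKM calculated by the authors, 1 file per library. Build GRCm39 and the tools HISAT2 2.1.0 and Bowtie2 2.2.3 are named in the submitters' processing notes without role or order, and the sources used here do not give the counting tool, its annotation or its treatment of multiply mapped reads. Symbols, exon lengths and GC content (of the longest transcript) came from GENCODE M21 (GRCm38), which named 23521 of 23886 identifiers. FPKM multiplied by M21 length and library total gave whole reads within 0.02 in all 6 libraries for 98.08% of 21748 genes above 0. Another length was searched for in 396 more, Bub1 among the members. Genes with at least 1 FPKM in at least 3 libraries were tested two-sided on log2(FPKM + 1), using limma 3.58.1 (R 4.3.3, variance trend on), with Benjamini-Hochberg adjustment over all of them. Folds on this scale understate the change of low genes. limma-voom used the recovered reads of 11049 of these genes. The correction subtracted a loess trend (span 0.3) in GC content and log2 length from each library, fitted on the 99.47% of tested genes with both. Data of 11049 genes were simulated once, with a small set of genes changed at each fold. Of the genes changed 1.1-fold, limma recovered 4% and limma-voom 8%. The shares were 32% and 68% at 1.2-fold, and 94% and 96% at 1.5-fold. The simulation gave every gene the same added spread between libraries and held no GC or length trend, so recovery in the real data may differ. Full values were given for the most abundant member and the one with the largest fold in each class, and for Ccnb1, Cdk1, Aurka, Plk1 and Mki67. From each further list the most abundant gene was named, with Foxm1 and Cdkn1a. The members and lists were chosen with earlier results of these data known. Figures were drawn with matplotlib 3.10.9. Alternatives were other pseudocounts, filters, scalings and thresholds, no variance trend, the corrections, limma-voom, a replicate block and each library left out.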

Additional observations from a re-analysis of the deposited data

How the results depend on the processing

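The median fold of the members stayed below 0 in all 28 alternatives, and 32 of the 45 members had a fold below 0 in every one in which they were tested. Another threshold, another filter or no variance trend cannot change a member's fold, so those alternatives add nothing to these counts. The number below 0 was 37 to 44 of those tested. Groups share replicate numbers 2 and 3 only, and same-numbered libraries deviated from their group means with correlations of 0.06 and 0.05. For pairs with different numbers the correlations ran from -0.15 to 0.11. The labels do not say what the number means, and so few pairs cannot show whether same-numbered libraries share a culture or batch. Under a replicate block, libraries with no partner of the same number add nothing to the fold, which rests on the pairs numbered 2 and 3. With the replicate block the members' median was -0.091, and 19 genes were called in place of 0. In that fit 5 members in place of 17 were lower at an unadjusted p under 0.05 (11.1%, against 3.23% of all tested genes). With the block and the GC content and length correction together these were -0.064, 18 and 4 (8.89%, against 3.23%). Whether the block itself or the loss of the unpaired libraries changed these counts was not tested. Over all genes, limma called 8 with a filter at 5 FPKM, where 42 members were tested. limma-voom called 503 genes and 7 members, and 92 and 2 with the correction. The cause was not tested. At a threshold of 0.01, 7 members (15.6%) were lower at an unadjusted p, against 2.01% of all tested genes.

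Leaving out any 1 library gave 0 to 3 called genes, 9 to 22 members lower at an unadjusted p under 0.05 (4.58% to 12.2% of all genes) and medians of -0.14 to -0.094. With the GC content and length correction, combinations added after seeing the data, these were 0 to 1, 4 to 14 (4.08% to 6.53% of all genes) and -0.093 to -0.058 (-0.069 without Control 3, -0.062 without Control 4, -0.058 without SMF 3). Of the 20 members given in full, folds near 0 changed sign. Plk1 was at -0.027 under TPM, -0.033 under quantile normalization, -0.066 with the correction, -0.058 with GC content alone, -0.031 with length alone, -0.036 with block and correction and -0.075 by corrected limma-voom. Without single libraries it was at -0.011 to 0.04, and at -0.106 to -0.029 corrected (-0.082, -0.081 and -0.038 without Control 2, 3 and 4). Cdc20 was at -0.001 corrected, -0.006 with the block and correction, -0.008 by corrected limma-voom and, corrected, at -0.014 to 0.006 without single libraries, with -0.013 without Control 4 (0.055 to 0.091 uncorrected). Aurka was at 0.028 with the replicate block and -0.049 to 0.009 without single libraries (-0.093 to -0.027 corrected), and Cks2 at 0.036 with GC content alone.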

Other observations

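Of the S phase genes, which act before G2, 15 of 23 had a fold below 0, with a median of -0.04 (-0.02 corrected), and no difference from the mitosis genes was tested. Pcna, the sliding clamp of replication and the most abundant of them, was at 88.61 ± 3.52 FPKM untreated and 87.24 ± 5.08 under SMF (SD, n = 3). The helicase genes Mcm2, Mcm3, Mcm5, Mcm6 and Mcm7 overlapped between groups with folds of -0.04 to 0.05. Rrm2, the regulated subunit of ribonucleotide reductase, which supplies deoxynucleotides, was at 76.47, 72.63 and 72.51 FPKM untreated and 61.34, 65.95 and 62.1 under SMF. Every SMF library was below every control (log2 fold -0.22 ± 0.042, limma adjusted p = 0.147). Rrm2 passed limma-voom (adjusted p = 0.00789), and so did the corrected value (adjusted p = 0.016). Mcm4 was the other gene of this list that limma-voom called lower (adjusted p = 0.0424), a call it did not keep with the correction (adjusted p = 0.162). Ccne1 and Ccne2, the cyclins of S phase entry, were at 3.11 ± 0.09 and 2.91 ± 0.43 FPKM untreated and 2.58 ± 0.12 and 2.24 ± 0.15 under SMF (limma adjusted p = 0.213 and 0.233). In both every SMF library was below every control, for Ccne2 by less than the rounding of SMF 2 and Control 3 (each 2.42 FPKM). Gins4, of the GINS complex of the replicative helicase, was higher in every SMF library than in every control, at 40.84 ± 1.99 and 44.65 ± 0.93 FPKM (limma adjusted p = 0.215). Cdt1, a licensing factor, was at 32.38 ± 1.36 and 34.97 ± 1.32 FPKM with overlap (limma adjusted p = 0.271). Over all 11114 genes tested, 952 (8.57%) were lower and 1046 higher at an unadjusted p under 0.05. Of the 23 genes of this list 6 were lower (Rrm2, Mcm4, Gins1, Tk1, Ccne1 and Ccne2) and 2 higher (Gins4 and Cdt1). These genes, Pcna apart, were named after their values were seen.

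Inhibitors of cyclin-dependent kinases were split, with 4 of 6 tested folds below 0. Cdkn1a, which encodes p21, was at 49.93, 47.24 and 46.59 FPKM untreated and 51.41, 49.96 and 51.22 under SMF. Every SMF library was above every control, SMF 2 only just (log2 fold 0.08 ± 0.039, limma adjusted p = 0.299). Cdkn2a, a locus for p16 and p19ARF and the most abundant of the list, was at 76.71 ± 7.85 and 89.03 ± 2.93 FPKM and was higher by limma-voom (adjusted p = 0.0432). With the GC content and length correction its limma-voom adjusted p was 0.651 and its limma-voom log2 fold went from 0.22 to 0.06. Cdkn1b, which encodes p27, stood lower without overlap, at 19.93 ± 0.38 and 17.77 ± 0.76 FPKM (limma adjusted p = 0.172); it was named after its values were seen.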
